A study of Mus musculus with 4 samples.

Results

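The 10 genes described here are the D-type cyclins Ccnd1, Ccnd2 and Ccnd3, the cyclin-dependent kinases Cdk4 and Cdk6, the kinase inhibitors Cdkn1a, Cdkn1b, Cdkn2a and Cdkn2c, and the transcription factor Myc. They were picked by symbol from the 43629 Ensembl genes of the count files, and all 10 were found. RNA was sequenced from pancreatic islets of C57BL/6 mice in 4 libraries, 1 per group. The first is labelled as a knockout of IMP2 (genotype Rip2;IMP2), the second is RNA precipitated with IMP2 from islets of WT genotype (RNA immunoprecipitation, RIP), the third is islets of control genotype, and the fourth is labelled IgG, also of WT genotype. IMP2 is an RNA-binding protein encoded by Igf2bp2. Rip2 usually names an insulin promoter that drives expression in beta cells, and other islet cells of the knockout may keep the gene. Age, the targeted exons and the number of mice behind a library went unstated in the sources used here.

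D-type cyclins bind Cdk4 or Cdk6, and the complex phosphorylates the retinoblastoma protein, which lets a cell pass from G1 into S phase. The INK4 inhibitors, here Cdkn2a and Cdkn2c, block Cdk4 and Cdk6, whereas the CIP/KIP inhibitors Cdkn1a (p21) and Cdkn1b (p27) act mainly on the cyclin E and cyclin A kinases that follow. Myc is a short-lived transcription factor that drives growth genes and, among them, Cdk4. In mice, Ccnd2 and Cdk4 are needed for beta cells to multiply after birth, Cdkn1b and the p16 product of Cdkn2a restrain them, and Cdkn2c is held active by menin. Proteins of the IMP family bind mRNA and affect its stability, and the paralog IMP1 is known to bind the Myc message.

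The labelled knockout held 24275628 gene counts, the RIP 6025594, control islets 26350813 and the IgG library 13195732. Levels are given as CPM, the usual scaling of a count to the gene counts of its library. Igf2bp2 stood at 9.14 CPM in the library labelled knockout, against 9.68 CPM in control islets, a ratio of 0.978 (0.813 to 1.17), so these counts do not bear the label out. They cover the whole gene and all islet cells, and the targeted exons are unstated, so they cannot show that the deletion is absent either. The 10 beta cell markers, headed by Ins2, summed to 335002 CPM in the knockout-labelled library, 236058 CPM in the RIP and 309568 CPM in control islets, but to 973 CPM in the IgG library. That library instead held 82780 CPM of 10 brown adipocyte markers, which came to 5711 CPM in the RIP and 384 CPM in control islets. The IgG library thus went against its tissue label, and values set against it also compare tissues. The RIP held more brown adipocyte RNA than control islets did, so ratios of the RIP over control islets are not free of this limit either. The Y-linked genes Ddx3y, Eif2s3y, Kdm5d and Uty summed to 0.0412 CPM in the knockout-labelled library, 7.47 CPM in the RIP, 4.71 CPM in control islets and 59.1 CPM in the IgG library. Xist, which is expressed in females, had 748, 631, 599.8 and 2.05 CPM in the same libraries. Thus the IgG library stood apart in sex-linked RNA as well as in tissue. The knockout-labelled library also held far less Y-linked RNA than control islets, so that pair too differs in sex-linked RNA.

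A ratio below compares the levels of 2 libraries after TMM scaling (trimmed mean of M values), and its interval is an exact 95% interval that covers counting error only. Calls of higher or lower needed an interval without 1 and a change past 1.5-fold between the islet libraries, or past 2-fold where the RIP was compared. Only genes with a mean of at least 1 CPM over both libraries were considered, which 9 of the 10 reached in each comparison. Cdkn2a did not. With 1 library per group no difference has a replicate check, no p-value can be given, and each ratio describes a pair of libraries.

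In the labelled knockout, Ccnd3, Cdk6 and Myc were called lower than in control islets, and the other genes stayed within 1.21-fold of the control level. That is 3 of 9 genes called lower, where 15.4% of the 15735 genes considered were, and 0 of 9 called higher, where 6.11% were (21.5% in either direction). In the RIP, most of these genes stood near their level in control islets, but Myc and Cdkn1a were called lower. That is 2 of 9 lower, where 24.0% of 15968 genes were, and 0 of 9 higher, where 17.1% were (41.1% in either direction). Against the IgG library 5 of 9 were called higher in the RIP, where 43.2% of 14822 genes were, and 2 of 9 lower, where 30.4% were (73.7% in either direction). Most genes were thus called against IgG, and a call there says little of the 10 genes. In bulk RNA, fewer cells of a type and less RNA per cell cannot be told apart.

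**Figure D1:**
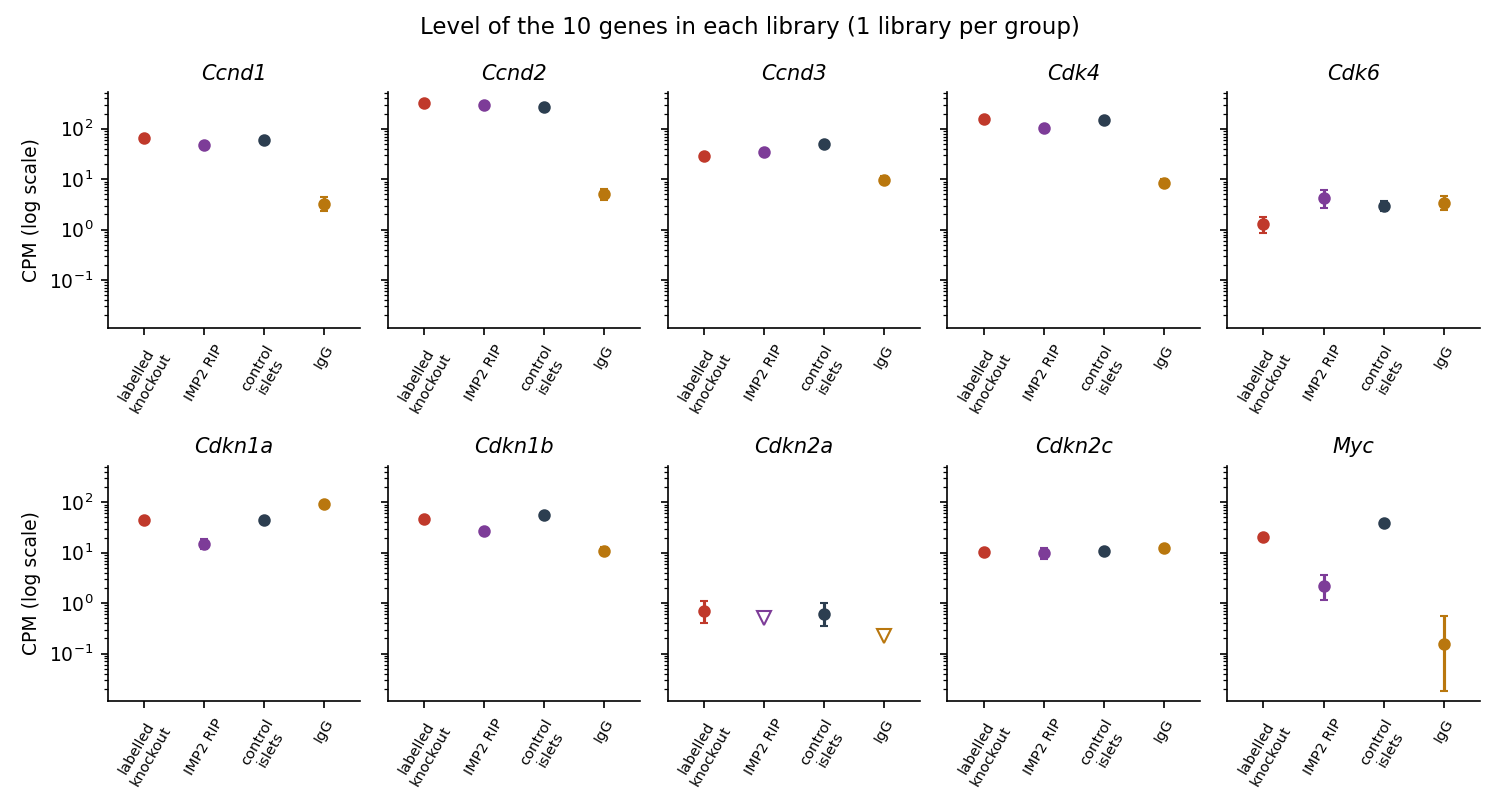
Level of each of the 10 genes (CPM, log scale) in the labelled knockout, the IMP2 RIP, control islets and the IgG library. Points are single libraries, bars are exact 95% Poisson intervals of the counts, and open triangles mark the limit of 3 counts where a library held 0. Myc stands at 2.16 CPM in the RIP, against 38.7 CPM in control islets, while Ccnd2 stays between 275 and 321 CPM in the first 3 libraries.

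Ccnd2, the D cyclin that mouse beta cells depend on most (ENSMUSG00000000184, mm10 chr6:127125162-127152193, minus strand), was the D cyclin with the most counts in the islet libraries. It stood at 321 CPM in the knockout-labelled library, 301 CPM in the RIP, 275 CPM in control islets and 5.08 CPM in the IgG library. The 3 libraries with islet RNA lie close together and the IgG library lies far below them. The ratio was 1.21 for the labelled knockout over control (1.17 to 1.25), 1.34 for the RIP over control islets (1.27 to 1.41) and 36.8 for the RIP over IgG (28.8 to 47.7). Dividing the RIP and IgG reads by the estimated reads per molecule widens both RIP intervals. They then run from 1.09 to 1.63 over control islets and from 12.6 to 170 over IgG. The ratio of the RIP over IgG is the highest among the 10 genes in any comparison. The beta cell markers moved the same way, with a median log2 ratio of 7.30 over 10 genes. Their part in the ratio was not tested.

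Ccnd1 (ENSMUSG00000070348, chr7:144929931-144939925, minus strand), the D cyclin best known as a target of growth factor signals, had 66.9 CPM in the knockout-labelled library, 47.6 CPM in the RIP, 61.0 CPM in control islets and 3.26 CPM in the IgG library. Like Ccnd2 it was far lower in the IgG library than in the others, but unlike Ccnd2 it was not above control islets in the RIP. Its ratio was 1.14 for the labelled knockout over control (1.06 to 1.22), 0.959 for the RIP over control islets (0.843 to 1.09) and 9.09 for the RIP over IgG (6.58 to 12.8). On estimated molecules the RIP intervals run from 0.546 to 1.56 over control islets and from 2.16 to 78.6 over IgG. Exons of LTO1 on the opposite strand cover 23.4% of the exon bases of Ccnd1, and use of strand in counting went unstated in the sources used here.

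Ccnd3 (ENSMUSG00000034165, chr17:47505051-47599691, plus strand), the D cyclin most used by lymphocytes, behaved differently from the other D cyclins. It had 29.1 CPM in the knockout-labelled library, 34.7 CPM in the RIP, 50.3 CPM in control islets and 9.78 CPM in the IgG library. In the labelled knockout it was 1.67-fold lower than in control islets (1.52 to 1.83), a call that is lost if a variation of 0.2 per library is assumed (ratio interval 0.341 to 1.05). The ratio of the RIP over control islets was 0.847 (0.728 to 0.980), and that of the RIP over IgG was 2.21 (1.76 to 2.77), just past the limit. Dividing the reads by the estimated reads per molecule widens this last interval to 0.765 to 7.11, which includes 1. The interval over control islets widens to 0.431 to 1.497 and includes 1 as well.

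The make-up of the D cyclins shifted with Ccnd3 and does not depend on scaling between libraries. Ccnd3 supplied 6.99% of D cyclin counts in the labelled knockout (exact binomial 6.50% to 7.50%) and 13.0% in control islets (12.4% to 13.7%). Its share was 9.06% in the RIP (7.92% to 10.3%), against 13.0% in control islets and 54.0% in the IgG library (47.4% to 60.4%). The RIP and IgG intervals treat each read as independent. Ccnd3 comes to an estimated 11.6 molecules for the RIP and 6.14 for IgG, so both shares are known less closely. Ccnd2 supplied 76.9%, 78.5%, 71.2% and 28.0% of D cyclin counts in the labelled knockout, the RIP, control islets and the IgG library. Per kilobase of exon, which allows genes to be compared, Ccnd2 made up 66.0% of D cyclin RNA in the labelled knockout, 69.4% in the RIP, 61.0% in control islets and 23.0% in the IgG library. The order of Ccnd1 and Ccnd3 per length depends on the gene model. Ccnd3 followed Ccnd1 over merged exons, at 12.0% against 27.0% in control islets, but led it over the longest coding transcript, at 28.5% against 19.5%.

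**Figure D2:**
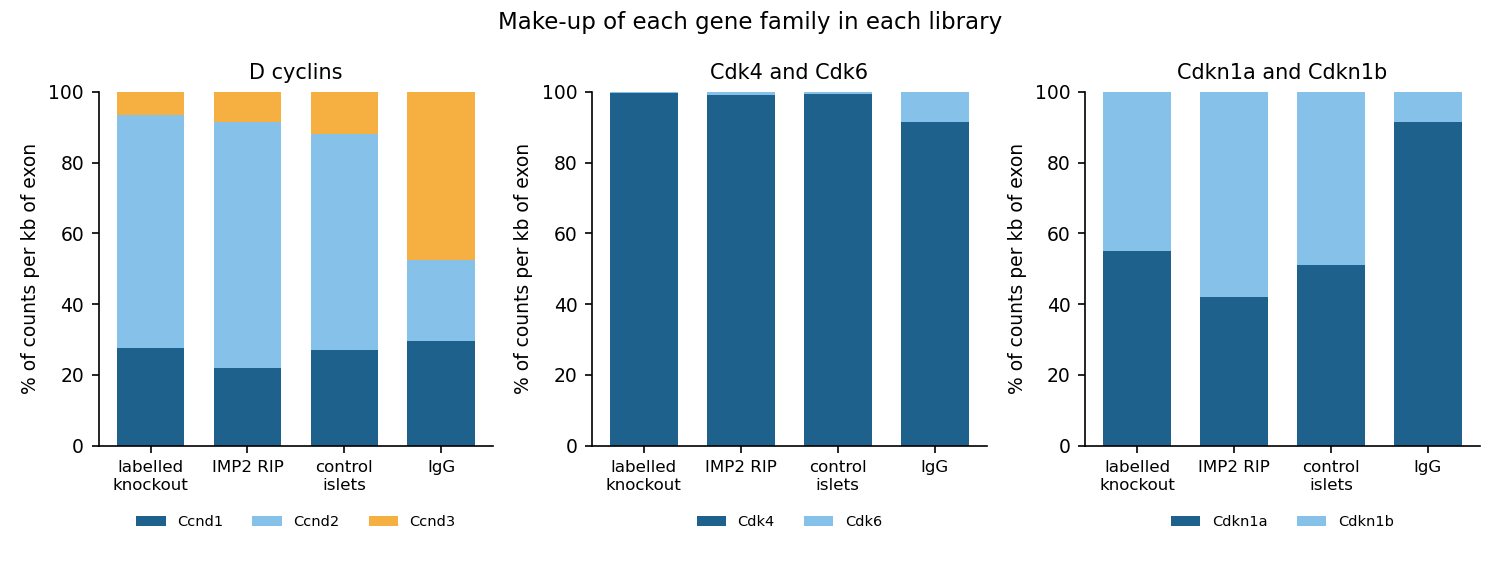
Share of counts per kilobase of merged exon that each gene contributes to its family (y axis, percent), in the labelled knockout, the IMP2 RIP, control islets and the IgG library. Ccnd2 leads the D cyclins in the first 3 libraries, while Ccnd3 leads in the IgG library at 47.5%. This Ccnd3 share rests on an estimated 6.14 molecules and is known only roughly. Cdkn1a makes up 91.5% of the CIP/KIP pair in the IgG library against 51.1% in control islets.

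Cdk4 (ENSMUSG00000006728, chr10:127063534-127067920, plus strand) was by far the more abundant of the kinases that D cyclins activate. It had 157 CPM in the knockout-labelled library, 103 CPM in the RIP, 146 CPM in control islets and 8.41 CPM in the IgG library. Per kilobase of exon it made up 99.8% of Cdk4 and Cdk6 RNA in the labelled knockout, 99.1% in the RIP, 99.5% in control islets and 91.4% in the IgG library. The ratio of Cdk4 was 1.11 for the labelled knockout over control (1.06 to 1.16), 0.863 for the RIP over control islets (0.792 to 0.940) and 7.60 for the RIP over IgG (6.20 to 9.39). On estimated molecules the RIP interval of Cdk4 is 0.598 to 1.21 over control islets, which includes 1, and 3.02 to 24.0 over IgG. Exons of Tspan31 on the opposite strand cover 19.7% of its exon bases.

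Cdk6 (ENSMUSG00000040274, chr5:3341485-3531008, plus strand), the kinase that blood and lymphoid cells rely on beside Cdk4, was rare in every library. It had 31 counts in the knockout-labelled library (1.28 CPM), 25 in the RIP (4.15 CPM), 77 in control islets (2.92 CPM) and 45 in the IgG library (3.41 CPM). In the labelled knockout it was 2.21-fold lower than in control islets (1.44 to 3.47), the lowest ratio of the 10 genes in this comparison. Its share of Cdk4 and Cdk6 counts was 0.804% in the labelled knockout (0.547% to 1.14%) and 1.96% in control islets (1.55% to 2.44%). The RIP ratios were 1.74 over control islets (1.06 to 2.77) and 0.756 over IgG (0.445 to 1.26), both within the 2-fold limit. The RIP reads come to an estimated 1.39 molecules, and on that scale both intervals include 1, at 0.105 to 8.08 and 0.0301 to 11.2.

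The promoters of these kinases are shown because Myc, which binds the E-box CACGTG, was lower in the labelled knockout while its textbook target Cdk4 was not. Each is 300 bases, from 250 before to 50 after a RefSeq start in GRCm38.p6, with CACGTG in capitals. The Cdk4 window is chr10:127063285-127063584 and the Cdk6 window is chr5:3343643-3343942, both on the plus strand.
Cdk4: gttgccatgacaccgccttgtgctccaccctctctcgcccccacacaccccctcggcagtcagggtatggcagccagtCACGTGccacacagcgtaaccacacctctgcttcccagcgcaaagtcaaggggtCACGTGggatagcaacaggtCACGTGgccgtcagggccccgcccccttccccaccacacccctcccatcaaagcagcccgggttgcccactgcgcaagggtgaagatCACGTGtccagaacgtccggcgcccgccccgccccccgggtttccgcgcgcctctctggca
Cdk6: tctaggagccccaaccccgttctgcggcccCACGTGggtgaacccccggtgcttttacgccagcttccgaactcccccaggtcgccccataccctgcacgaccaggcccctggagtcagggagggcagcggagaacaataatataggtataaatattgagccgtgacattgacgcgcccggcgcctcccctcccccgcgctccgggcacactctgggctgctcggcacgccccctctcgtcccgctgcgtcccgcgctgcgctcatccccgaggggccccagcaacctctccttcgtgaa
The Cdk4 window holds 4 E-boxes and the Cdk6 window 1. CACGTG reads the same on both strands, and no match overlaps another. Of 32851 such windows of mouse genes, 7.15% hold at least 1 match and 8 windows, Cdk4 among them, hold 4 or more. The table had 11 windows for 7 of the 10 genes. Of the Cdkn2c windows, the one at chr4:109665323-109665622 holds 1 match, and the windows of Ccnd3, Cdkn1a, Cdkn1b and Cdkn2a hold 0. Ccnd1, Ccnd2 and Myc had no entry.

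Cdkn1a, which encodes p21 and is a main target of p53 (ENSMUSG00000023067, chr17:29090976-29100727, plus strand), was level between the islet libraries and low in the RIP. It had 44.0 CPM in the knockout-labelled library, 14.9 CPM in the RIP, 45.5 CPM in control islets and 92.0 CPM in the IgG library. The RIP thus lies below both libraries it is compared with. The ratio of the labelled knockout over control was 1.001 (0.921 to 1.09). In the RIP, Cdkn1a was 2.48-fold lower than in control islets (1.999 to 3.10) and 9.91-fold lower than in the IgG library (7.99 to 12.4). On estimated molecules the ratio intervals were 0.131 to 0.944 and 0.0316 to 0.249, still below 1. Among the 10 genes, Cdkn1a was the most abundant per kilobase of exon in the IgG library, where it ranked above Cdkn2c. Brown adipocyte markers were high in that library too, and their part in the ratio over IgG was not tested.

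Cdkn1b, which encodes p27, a brake on resting cells (ENSMUSG00000003031, chr6:134920401-134925513, plus strand), had 46.0 CPM in the knockout-labelled library, 26.4 CPM in the RIP, 55.8 CPM in control islets and 10.9 CPM in the IgG library. No call was made for it. Its ratio was 0.852 for the labelled knockout over control (0.787 to 0.921), 0.581 for the RIP over control islets (0.490 to 0.684) and 1.503 for the RIP over IgG (1.19 to 1.90). On estimated molecules both RIP intervals include 1, at 0.263 to 1.11 over control islets and 0.492 to 4.81 over IgG. Scaled by library totals instead, Cdkn1b passed the 2-fold limit in both RIP comparisons, at 0.473 over control islets and 2.42 over IgG. Cdkn1a supplied 48.9% of the counts of this pair in the labelled knockout (46.8% to 51.0%), 36.1% in the RIP (30.2% to 42.4%), 44.9% in control islets (43.0% to 46.8%) and 89.4% in the IgG library (87.6% to 91.0%). The RIP and IgG intervals again treat each read as independent. In the RIP, Cdkn1a comes to an estimated 5 molecules, so its share there is known less closely.

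Of the INK4 genes, Cdkn2c, which encodes p18 (ENSMUSG00000028551, chr4:109660876-109667189, minus strand), was the most even of the 10 across the libraries. It had 10.1 CPM in the knockout-labelled library, 9.79 CPM in the RIP, 10.6 CPM in control islets and 12.3 CPM in the IgG library. The ratio of the labelled knockout over control was 0.986 (0.828 to 1.18) and that of the RIP over control islets was 1.13 (0.840 to 1.504). Against IgG it was called 2.02-fold lower in the RIP under TMM scaling (1.49 to 2.77). Its ratio was 0.798 with library totals and 1.07 when acinar and hormone genes were left out of them, so its direction there rests on the scaling. On estimated molecules the ratio interval over IgG is 0.0917 to 2.02, which includes 1.

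Cdkn2a, which encodes p16 and p19Arf from separate first exons (ENSMUSG00000044303, chr4:89274471-89294653, minus strand), was barely detected. It had 17 counts in the knockout-labelled library (0.7003 CPM), 0 in the RIP, 16 in control islets (0.607 CPM) and 0 in the IgG library. The count does not separate its products. The ratio of the labelled knockout over control was 1.19, with an interval of 0.567 to 2.52 that is too wide to show a difference. With 3 counts taken as the limit of a count of 0, up to 0.498 CPM in the RIP and 0.227 CPM in the IgG library would go unseen. The ratio of the RIP over control islets could be as high as 1.39 by its interval on reads and 25.1 on estimated molecules, so no difference was detectable at this depth.

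Myc (ENSMUSG00000022346, chr15:61985391-61990374, plus strand) differed most between the libraries. It had 500 counts in the knockout-labelled library (20.6 CPM), 13 in the RIP (2.16 CPM), 1020 in control islets (38.7 CPM) and 2 in the IgG library (0.152 CPM). Control islets stand highest and the RIP lies well below both islet libraries. In the labelled knockout Myc was 1.82-fold lower than in control islets (1.63 to 2.03). In the RIP it was 14.6-fold lower than in control islets (8.50 to 27.5), the lowest ratio of the 10 genes in that comparison. Read as estimated molecules, the RIP held 0.722 of a Myc molecule, a value below 1 that shows how rough the estimate is. The ratio interval on that scale, 0.000507 to 0.483, still lies below 1. The ratio of the RIP over IgG was 8.85 (2.004 to 80.8), which passes the 2-fold limit, but on estimated molecules its lower bound is 0.00642. Thus the RIP counts give no firm difference of Myc from the IgG library.

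The last 300 bases of the Myc coding sequence, stop codon included, are shown because in human MYC the end of the coding sequence carries the coding region determinant, the stretch that IMP1 binds. They lie at chr15:61989609-61989908 (plus strand, GENCODE M21, GRCm38). Capitals mark GGAC, the core of the m6A consensus that IMP proteins read.
Myc: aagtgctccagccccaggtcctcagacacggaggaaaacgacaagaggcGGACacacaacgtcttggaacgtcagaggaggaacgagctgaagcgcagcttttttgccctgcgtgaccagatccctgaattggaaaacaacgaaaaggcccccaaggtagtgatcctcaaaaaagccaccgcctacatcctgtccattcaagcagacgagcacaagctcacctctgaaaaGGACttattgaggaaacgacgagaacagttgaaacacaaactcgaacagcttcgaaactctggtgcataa
This stretch holds 2 GGAC. The whole Myc transcript holds 12 in 2338 bases, or 5.13 per kilobase, above the median of 3.96 over 21462 protein-coding genes. Ccnd2 holds 28 (4.42 per kilobase), 21 of them in its 3' UTR, and Cdkn1a 11 (5.29 per kilobase). Over the 10 genes the density ran between 2.78 per kilobase in Cdk6 and 7.82 in Cdkn2a, on the sense strand. Cdk4, which was not called lower in the RIP than in control islets, held 5.85 per kilobase, above Myc and Cdkn1a, which were. The letters alone say nothing of methylation or binding.

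**Figure D3:**
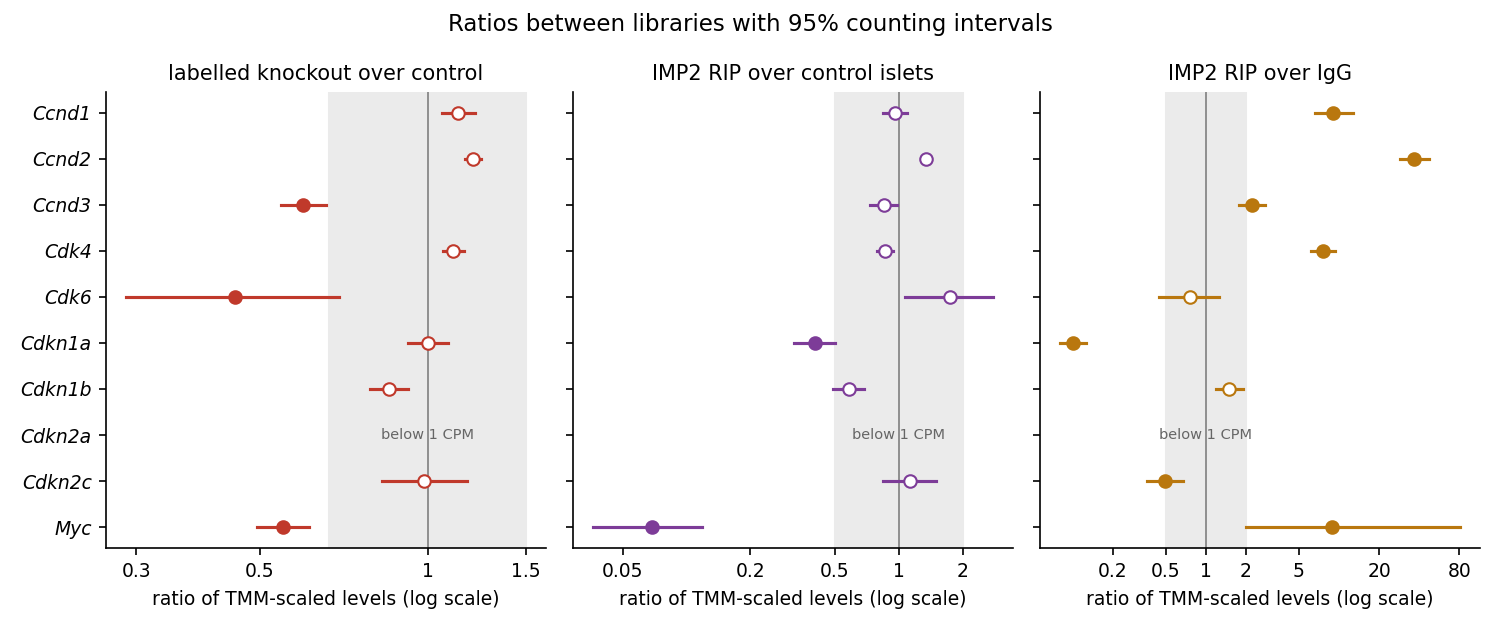
Ratio of TMM-scaled levels for each gene (log scale) in the labelled knockout over control islets, the RIP over control islets and the RIP over IgG. Lines are exact 95% counting intervals, filled points passed the limit and open points did not, and the grey band spans the fold limit. Filled points lie below 1 for Ccnd3, Cdk6 and Myc in the labelled knockout and for Cdkn1a and Myc in the RIP over control islets.

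Lymphocyte markers were lower than in control islets in both other islet RNA libraries, and other cell types differed in direction. In the labelled knockout, where 6.11% of all genes were called higher and 15.4% lower, 3 of 6 alpha cell markers were called higher and 0 lower. Of 8 macrophage markers 1 was called higher and 2 lower, and of 8 mesenchymal markers 0 were called. Between the RIP and control islets, 17.1% of all genes were called higher and 24.0% lower. There 10 of 10 brown adipocyte markers and 2 of 6 alpha cell markers were called higher and 0 lower. Of 8 macrophage markers 1 was called higher and 4 lower there, and of 8 mesenchymal markers 0 were called. All 14 lymphocyte markers were called lower in the labelled knockout, summing to 330 CPM against 1829 CPM in control islets, with single markers at 1.32 to 83.5 CPM against 18.0 to 436 CPM and none at 0 in either library. Their median log2 ratio was -2.41. All 14 were also called lower in the RIP than in control islets, where 24.0% of all genes were. They summed to 224 CPM in the RIP, at a median log2 ratio of -3.55, with Cd3d, Cd2 and Cd8a at 0 counts. Beta cell markers had a median of 0.29 in the labelled knockout over control and -0.04 in the RIP over control islets. Ccnd3, Cdk6 and Myc were all called lower in the labelled knockout. In the RIP over control islets only Myc of these was, with Ccnd3 at 0.847 and Cdk6 at 1.74. The part of lymphocyte RNA in these ratios was not tested.

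Genes of DNA replication and mitosis moved further than the 10 genes. Of 26, 25 were called lower and 0 higher in the labelled knockout, where 15.4% and 6.11% of all genes were. Their median log2 ratio was -1.19, where the 9 G1 genes considered had a median of -0.02 and all genes 0.00. Mcm3 and Mcm4, subunits of the replicative helicase, were 3.92-fold and 3.79-fold lower. Tyms, which makes thymidylate, was 1.54-fold lower, and the mitotic kinase gene Aurka had a ratio of 0.695, not called. Between the RIP and control islets 15 of 26 were called lower and 0 higher, where 24.0% and 17.1% of all genes were. The median was -1.35 in this comparison, against -0.21 for the G1 genes and -0.10 for all genes. There Rrm1, a subunit of ribonucleotide reductase, was 11.5-fold and Mcm3 10.2-fold lower, and 8 of the 15 calls held on estimated molecules, both of these among them. The lymphocyte markers moved the same way in both comparisons, and their part in these ratios was not tested.

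Other regulators of the G1/S step had 6 of 30 genes called lower and 0 higher in the labelled knockout, at a median of -0.08. The shares over all genes were 15.4% and 6.11%. The kinase gene Cdk2, which pairs with cyclin E, was 2.45-fold lower, and the transcription factor gene E2f2 was 2.06-fold lower. At the other end, E2f5 had a ratio of 1.32 and Mnat1, of the kinase that activates CDKs, 1.28. Set against control islets, the RIP had 2 of 30 called higher and 4 lower, where 17.1% and 24.0% of all genes were. Fbxw7, whose product marks cyclin E and Myc protein for degradation, was 3.61-fold higher (3.27 to 3.98), at 113 CPM in the RIP against 38.5 CPM in control islets, and Ccne2 was 3.31-fold higher. Rbl2, a relative of the retinoblastoma gene, was 5.12-fold lower and E2f3 2.55-fold lower. On estimated molecules 1 stayed called higher, Fbxw7, and 1 lower, Rbl2.

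Myc-activated growth genes, mostly of ribosome assembly and nucleotide or amine synthesis, had 8 of 26 called lower and 1 higher in the labelled knockout, at a median log2 ratio of -0.32. Of all genes considered, 15.4% were called lower and 6.11% higher. Ddx21, a nucleolar helicase, was 2.33-fold lower and Shmt1, a serine hydroxymethyltransferase, 2.18-fold lower. Srm, which makes spermidine, was 1.79-fold higher, and Ppan had a ratio of 1.21. Of the same genes in the RIP, 7 of 26 were called lower than in control islets and 0 higher. That is close to the 24.0% of all genes called lower, where 17.1% were called higher. Fbl was 8.77-fold and Shmt2 7.59-fold lower. Of the 7 calls, 4 held on estimated molecules, with Shmt2 but without Fbl, which rests on 8 reads in the RIP. Partners and antagonists of Myc had 15 of 16 listed genes considered, of which Mycl alone was called, 3.30-fold lower in the labelled knockout, with Mxd4 at a ratio of 1.16 and a list median of -0.13. In the RIP 0 of 14 were called higher than in control islets and 2 lower, Mycl and Mxd3, both at 0 counts, and neither call held on estimated molecules.

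p53 response genes, the group to which Cdkn1a belongs, had 1 of 22 called higher and 3 lower in the labelled knockout, with a median of 0.03. Over all genes, 6.11% were called higher and 15.4% lower. Gadd45a, a stress and DNA damage gene, was 2.16-fold higher (1.87 to 2.50). Fas, a death receptor that lymphocytes also carry, was 2.22-fold lower and Trp53inp1 1.95-fold lower. Relative to control islets the RIP had 2 of 20 called higher and 6 lower, where 17.1% and 24.0% of all genes were. Gadd45a was 3.07-fold and Phlda3 2.91-fold higher there, opposite to Cdkn1a. Bbc3 was 3.99-fold and Trp53inp1 3.75-fold lower, the same direction as Cdkn1a. On estimated molecules 2 of these genes stayed called higher, Gadd45a and Phlda3, and 2 lower, with Trp53inp1 but without Bbc3. Phlda3 had 231 CPM in the IgG library.

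Upstream regulators of beta cell proliferation had 1 of 24 called higher and 4 lower in the labelled knockout, with a median of -0.25. Among all genes, 6.11% were called higher and 15.4% lower. Prlr, the prolactin receptor that raises cyclin D2 in pregnancy, was 1.59-fold higher (1.53 to 1.64), at 318 CPM against 207 CPM in control islets. Ezh2, a histone methyltransferase that silences Cdkn2a, was 2.50-fold lower, and Nfatc1, a calcineurin-dependent factor also active in lymphocytes, 2.52-fold lower. In the RIP over control islets 0 of 24 were called higher and 4 lower, where 17.1% and 24.0% of all genes were. Among the 4, Ezh2 was 9.71-fold and Nfatc1 4.12-fold lower. All but 1 of these 4 calls held on estimated molecules, Ezh2 and Nfatc1 among them. Prlr had 1630 counts in the RIP against 9 in the IgG library, and on estimated molecules the lower bound of that ratio was 22.8.

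**Figure D4:**
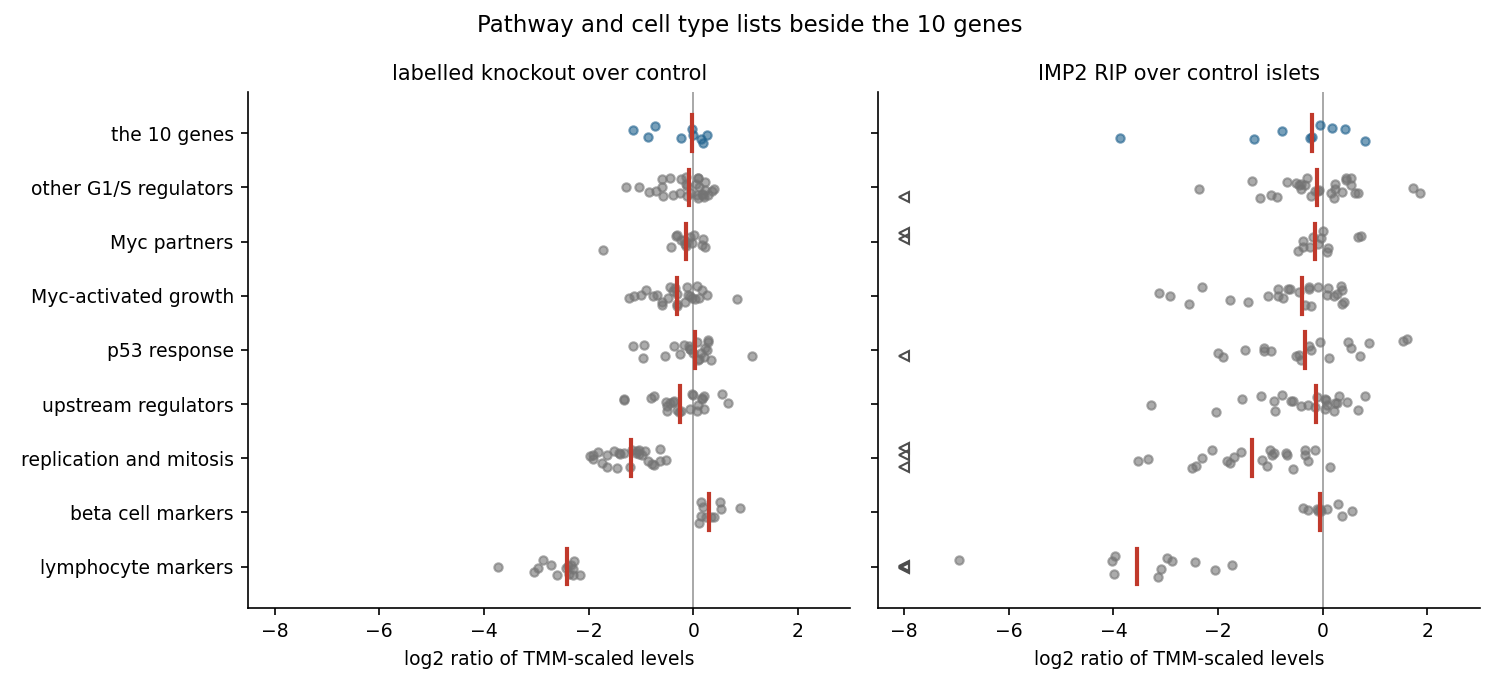
Log2 ratio of TMM-scaled levels of single genes (points) in the 10 genes, 6 pathway lists and 2 cell type lists, for the labelled knockout over control islets and the RIP over control islets. Red bars are list medians and open triangles mark genes at 0 counts in the RIP. Replication and mitosis genes and lymphocyte markers lie to the left in both panels, with medians of -1.19 and -2.41 in the labelled knockout, while the 10 genes centre near 0 with Myc far to the left in the RIP.

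The comparison with IgG depends on how the libraries are scaled. The median log2 ratio of all genes moved up by 0.69 under library totals and by 1.11 when acinar and hormone genes were left out of the totals, and 58.7% of called genes were higher in the RIP under TMM against 69.4% and 75.3% under these. The 10 genes then had 6 called higher and 1 lower in both, in place of 5 and 2. For the RIP over control islets the median moved by -0.30 and -0.45, 41.5% of called genes were higher under TMM against 31.0% and 26.3%, and the 10 genes had 0 higher and 3 lower in place of 0 and 2, the added gene being Cdkn1b. Ccnd1, Ccnd2, Ccnd3, Cdk4 and Cdkn1a kept their direction and call against IgG under each scaling.

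The genes nearest in pattern to single members over the 4 libraries were looked up. Likeness was measured as the distance between log2(CPM + 0.5) profiles, each centred on its own mean, among 11219 protein-coding genes with a mean of at least 5 CPM. For Ccnd2 the nearest were Emb, Tmigd3 and Cdk8, at distances of 0.08. For Ccnd3 they were Dbf4, Pcna and Ppp1r12a at 0.11, of which Dbf4 and Pcna serve DNA replication. For Myc they were Rif1 at 0.07, Prps2 at 0.15 and Iws1 at 0.39. For Cdkn1a they were Amdhd2 at 0.08 and Tlcd1 and Tmem109 at 0.14. For Ccnd1 they were Tmprss2, A430033K04Rik and Sec13 (0.03 to 0.09), for Cdk4 Lzts2, Qtrt2 and Rheb (0.05 to 0.09), for Cdkn1b Rnf4, Pikfyve and Mynn (0.04 to 0.05), and for Cdkn2c Snx3, Dazap1 and Rtcb (0.07 to 0.08). Cdk6 and Cdkn2a did not reach the minimum of 5 CPM and are left out. Among 11219 genes a near neighbour over 4 points is easily found. The 0.5 added also lets genes at 0 in the IgG library come near. Tmprss2 did so for Ccnd1, which had 3.26 CPM there. Such likeness over 4 points describes these libraries and nothing more.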

How the data were processed

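Counts of reads per gene were deposited by the authors, 1 file per library and not normalized. Per the submitters' processing notes, STAR, HTSeq and the mm10 build were used; their versions, the gene annotation and any use of strand went unstated in the sources used here. The 5 closing entries that name no gene held 50.3% of the deposited total in the labelled knockout, 72.4% in the RIP, 50.8% in control islets and 70.5% in the IgG library, and stayed out of all values. Reads over exons of several genes or aligned more than once are not assigned by such counting.

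Names, positions and exon lengths came from GENCODE M21 (GRCm38), which matched 42548 of 43629 identifiers. TMM factors came from edgeR 4.0.16 under R 4.3.3, per pair of libraries. Intervals are Clopper-Pearson on 1 library's count out of the sum of both, tried on simulated Poisson counts. That simulation follows the model of the interval and holds no repeated reads of a molecule. It checks the calculation only and says nothing of how well the RIP and IgG intervals cover. Reads per molecule were estimated roughly as 18 for the RIP and 21 for IgG, the median over genes seen there by over 5 counts but by none in both islet libraries. This takes each such gene, 230 in the RIP and 121 in IgG, as 1 molecule. Genes of another tissue, such as brown fat, may stand for more, and the limit of 5 counts raises the median. The estimate may therefore be too high and the intervals on molecules too wide. List medians use 0.5 added counts. Sequences came from RefSeq (GRCm38.p6) and GENCODE M21. The rest ran in Python 3.11.15 with SciPy 1.17.1 and NumPy 2.4.6, and plots used Matplotlib 3.10.9.

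The members and lists were chosen with earlier results of these data known. Examples of a list are the 2 highest and 2 lowest ratios at a mean of at least 5 CPM. Alternatives were other scalings, filters, fold limits, an assumed variation and estimated molecules.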

Additional observations from a re-analysis of the deposited data

How the results depend on the processing

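No paired analysis was possible because each group has 1 library, and for the same reason no library could be left out. In the labelled knockout over control, 3 of the 10 genes were called lower under each scaling and with no filter, 2 at a minimum of 5 CPM (which leaves out Cdk6), 2 with an assumed variation of 0.2 per library (without Ccnd3) and 1 under a 2-fold limit (Cdk6). In the RIP over IgG, the 5 called higher became 3 on estimated molecules, and the 2 called lower became 1 under library totals, under totals without acinar and hormone genes (where the ratio of Cdkn2c turned to 1.07) and on estimated molecules. In the RIP over control islets, 0 became 1 called higher under a 1.5-fold limit (Cdk6). Ccnd2 made up 61.5% of D cyclin RNA in the labelled knockout, 62.0% in the RIP, 52.0% in control islets and 12.7% in the IgG library per kilobase of the longest coding transcript. Of 204 ratios of single genes under alternatives, 189 kept their call, 7 lost it, 7 gained it and 1 reversed. The counts of all genes called in the labelled knockout, 962 higher and 2416 lower, became 265 and 1575 with an assumed variation of 0.2 per library, 495 and 1585 at a minimum of 5 CPM, and 196 and 1377 under a 2-fold limit. For the RIP over IgG, 6409 higher and 4513 lower became 2315 and 2822 on estimated molecules, 3951 higher at a minimum of 5 CPM, and 2804 lower under totals without acinar and hormone genes. For the RIP over control islets, 2723 and 3835 became 1394 and 964 on estimated molecules, and 1337 and 2172 at a minimum of 5 CPM. Over the pathway lists, 58 higher and 31 lower in the RIP over IgG became 27 and 17 on estimated molecules, and 38 lower in the RIP over control islets became 18, an alternative chosen after seeing the data. At the depth of the RIP, Myc, Cdk6 and Cdkn2a rest on 25 reads or fewer.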

Other observations

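Neighbours of the members in the genome gave a mixed picture. Pvt1, the long noncoding RNA gene next to Myc (chr15:62037986-62378096, plus strand), had 41 counts in the labelled knockout, 39 in the RIP, 91 in control islets and 24 in the IgG library. It was 1.98-fold lower in the labelled knockout (1.35 to 2.93), the same direction as Myc, but 2.30-fold higher in the RIP than in control islets (1.54 to 3.39), opposite to Myc. On estimated molecules that last interval runs from 0.310 to 8.19. Cdkn2b, which encodes the INK4 inhibitor p15 beside Cdkn2a, had 5.81 CPM in the knockout-labelled library, 6.64 CPM in the RIP, 5.62 CPM in control islets and 4.17 CPM in the IgG library, with a ratio of 1.07 for the labelled knockout over control (0.843 to 1.36). It was thus detected in all 4 libraries, unlike Cdkn2a.

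Relatives of 2 members were at 0 counts in the RIP. Cdkn1c, which encodes p57, had 119 counts in the labelled knockout, 0 in the RIP, 119 in control islets and 463 in the IgG library. Mycl had 61, 0, 226 and 523 counts in the same libraries. On estimated molecules the upper bound of the RIP ratio over IgG was 0.213 for Cdkn1c and 0.186 for Mycl, both below 1. Over control islets it was 3.04 for Cdkn1c and 1.59 for Mycl, so no difference from control islets was detectable on that scale. On reads both were called lower than in control islets, with an upper bound of 0.169 for Cdkn1c. Whether they differ from control islets thus rests on the rough estimate of reads per molecule.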
